A study of Rattus norvegicus with 2 samples.

Results

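The matrix metalloproteinases and their tissue inhibitors were followed in cultured rat endothelial cells of 2 origins. Members were the probe sets annotated with exactly 1 gene symbol equal to one of 10 listed genes, 7 proteases (Mmp2, Mmp3, Mmp9, Mmp10, Mmp11, Mmp12 and Mmp14) and 3 inhibitors (Timp1, Timp2 and Timp3). All 10 were on the Affymetrix rat genome U34A array, with 12 probe sets, 8 for proteases and 4 for inhibitors, among 4736 annotated genes in all. The endocardial group was endothelium of the heart chambers and the aortic group endothelium of the aorta, both taken from the same 2 rats. Cells of each origin were pooled and cultured separately for 2 passages under closely matched conditions, and no treatment or genetic change is named in the labels. Strain, sex and age are not given in the sources used here. Each group had 1 array, so differences below have no replicate check and no test was run.

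Matrix metalloproteinases are zinc enzymes that are made as inactive precursors and cut collagens, elastin and other proteins of the extracellular matrix. Tissue inhibitors of metalloproteinases bind the active site of the enzymes, and the balance of the families bears on matrix turnover in vessel wall and heart. At the cell surface, the membrane-anchored enzyme encoded by Mmp14 takes part with TIMP-2 in the activation of the precursor of Mmp2, so that TIMP-2 both assists and inhibits this pathway.

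Mmp12 was the 1 member that differed by 2-fold or more, with a bright signal on the endocardial array and none above the floor on the aortic array. The inhibitors were all lower on the endocardial array, by 1.37-fold to 1.91-fold over 4 probe sets. Mmp14 and the brighter Mmp2 probe set were slightly higher there, by 1.28-fold and 1.23-fold. Mmp3, Mmp9 and Mmp10 were under the floor on both arrays.

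Mmp12, Mmp3 and Mmp10 lie in one run of metalloproteinase genes on chromosome 8 and their promoters hold the same short motif, while only Mmp12 had signal. Their promoter sequences are therefore shown, from 150 bases before to 30 bases after the annotated gene start, from RefSeq, build GRCr8, each on the plus strand. They lie at chr8:12866502-12866681 for Mmp12, chr8:12925131-12925310 for Mmp3 and chr8:12974557-12974736 for Mmp10. Capitals mark the AP-1 motif (TGAGTCA or TGACTCA, which are each other's reverse complement, so that both strands are covered) and the TATA motif (TATAAA, searched on the gene's strand).
Mmp12: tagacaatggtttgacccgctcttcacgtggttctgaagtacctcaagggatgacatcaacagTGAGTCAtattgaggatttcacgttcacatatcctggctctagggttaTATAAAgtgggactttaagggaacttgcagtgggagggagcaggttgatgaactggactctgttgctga
Mmp3: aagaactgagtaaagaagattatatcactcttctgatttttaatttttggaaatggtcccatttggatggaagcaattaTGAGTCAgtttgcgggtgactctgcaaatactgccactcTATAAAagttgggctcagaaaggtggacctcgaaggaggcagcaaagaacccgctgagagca
Mmp10: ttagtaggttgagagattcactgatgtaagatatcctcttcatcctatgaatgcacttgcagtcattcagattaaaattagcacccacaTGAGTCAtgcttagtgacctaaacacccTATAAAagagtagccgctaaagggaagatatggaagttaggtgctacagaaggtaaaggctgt

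Intensities below are as deposited, in arbitrary units on a linear scale, and can fall below 0. Ratios are endocardial over aortic and were taken after both arrays were scaled to the same trimmed mean, which moved values by less than 0.1%. A floor was set at 635.4, the median of all scaled values, and a value at or under it gives a bound. As a second mark, the highest of 38 background control probe sets stood at 1742 after scaling. Probe sets that stand for one gene differed in log2 ratio with an SD of 0.39 (625 genes and 1432 probe sets, each brighter than the floor on both arrays). This SD describes probe set noise, not the spread between cultures. Over the 3932 probe sets brighter than the floor on both arrays, the median log2 ratio was -0.04 and 54.0% were negative.

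The label was set against marker genes of each cell type. Of 9 endothelial markers on the array, 4 were above the floor. They were Nos3, the endothelial nitric oxide synthase (log2 ratio -0.06), the receptor Flt1 (0.35), Thbd, thrombomodulin (-0.46), and the angiotensin-converting enzyme Ace (-1.16). Of these 4, 0 passed 2-fold higher and 1 lower (Ace). Only Thbd was above the highest background control on both arrays. Against that control the log2 ratio of Ace was -0.40, and 0 of 3 measured passed 2-fold either way. Pecam1, Vwf, Kdr, Icam2 and Sele did not reach the floor on either array, so the endothelial identity is taken from the labels. Fibroblast markers had a summed intensity of 270452 on the endocardial and 347671 on the aortic array over 10 genes, of which 1 passed 2-fold higher and 2 lower. The higher one was Postn, periostin (log2 ratio 2.98), and the lower ones were Lox, lysyl oxidase (-1.53), and Dcn, decorin. The collagens Col1a1, Col1a2 and Col3a1 were among the bright ones on both arrays, while Dcn was under the highest background control on the endocardial array. Smooth muscle markers had a summed intensity of 140338 on the endocardial and 88581.5 on the aortic array over 7 genes. Of 6 measured, 2 passed 2-fold higher (Myl9 and Itga8) and 1 lower (Myh11), with a median log2 ratio of 0.84. Against the highest background control 1 of 6 passed higher and 0 lower. The shares of all probe sets against that control were 4.53% higher and 3.26% lower. Of 5 measured cardiomyocyte markers 0 passed 2-fold higher and 1 lower (Myh6), with a median log2 ratio of 0.07. Over all 2935 measured genes, 5.93% passed 2-fold higher and 4.16% lower. The part of these cell types in the member values was not tested. RNA came from whole cultures, in which fewer cells of a type and less RNA per cell cannot be told apart.

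Among the gelatinases, enzymes that cut denatured collagen, Mmp2 was measured and Mmp9 was not. The brighter Mmp2 probe set (U65656_at, the first set in the plot of member intensities) read 18293 on the endocardial and 14892.1 on the aortic array, a log2 ratio of 0.30, which is 0.749 times the SD among probe sets of a gene. The other Mmp2 probe set (X71466_at) read 1381.8 on the endocardial and 1852.9 on the aortic array, a log2 ratio of -0.42. The probe sets of Mmp2 thus went opposite ways, and the dimmer one was near the highest background control on both arrays. Mmp9 read -46.8 on the endocardial and -861.2 on the aortic array, which leaves it without a ratio.

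Mmp14, the membrane-anchored collagenase, read 33217.5 on the endocardial and 25832.3 on the aortic array. Its log2 ratio of 0.36 was 0.917 times the SD among probe sets of a gene, and 19.1% of the 3932 probe sets had a ratio at or above it. Mmp14 and the brighter Mmp2 probe set were the 2 protease probe sets above the highest background control on both arrays.

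The stromelysins Mmp3 and Mmp10, which cut proteoglycans, fibronectin and the precursors of other metalloproteinases, were under the floor on both arrays. Mmp3 read 322.9 on the endocardial and 432.7 on the aortic array. Mmp10 read -1192.1 on the endocardial and -1636.3 on the aortic array. Neither value pair gives a ratio, and expression under the floor was not detectable here. Mmp11, called stromelysin 3, has a different substrate range and is activated inside the cell by furin. It read 878 on the endocardial and 1102.3 on the aortic array, a log2 ratio of -0.33 with both values under the highest background control.

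Mmp12, the macrophage metalloelastase, which cuts elastin, read 6090.9 on the endocardial and 267.6 on the aortic array. Against the floor, the endocardial intensity was at least 9.58-fold the aortic one, and against the highest background control at least 3.49-fold. On the aortic array 447 probe sets were at or under the floor while above it on the endocardial array, and 4 of these, Mmp12 included, were as bright on the endocardial array as Mmp12 or brighter. Mmp12 rested on 1 probe set (X98517_at).

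Over the proteases, 5 of 8 probe sets were above the floor on at least 1 array. Of these, 1 passed 2-fold in the endocardial direction, as 6.61% of all 4808 probe sets so measured did, and 0 passed it in the aortic direction, as 4.83% did. Mmp12 is that 1, and it passed the filter through the endocardial array alone, so its direction was fixed by that filter. The 4 protease probe sets brighter than the floor on both arrays had log2 ratios from -0.42 to 0.36, with a median of -0.02, close to that of all probe sets.

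**Figure D1:**
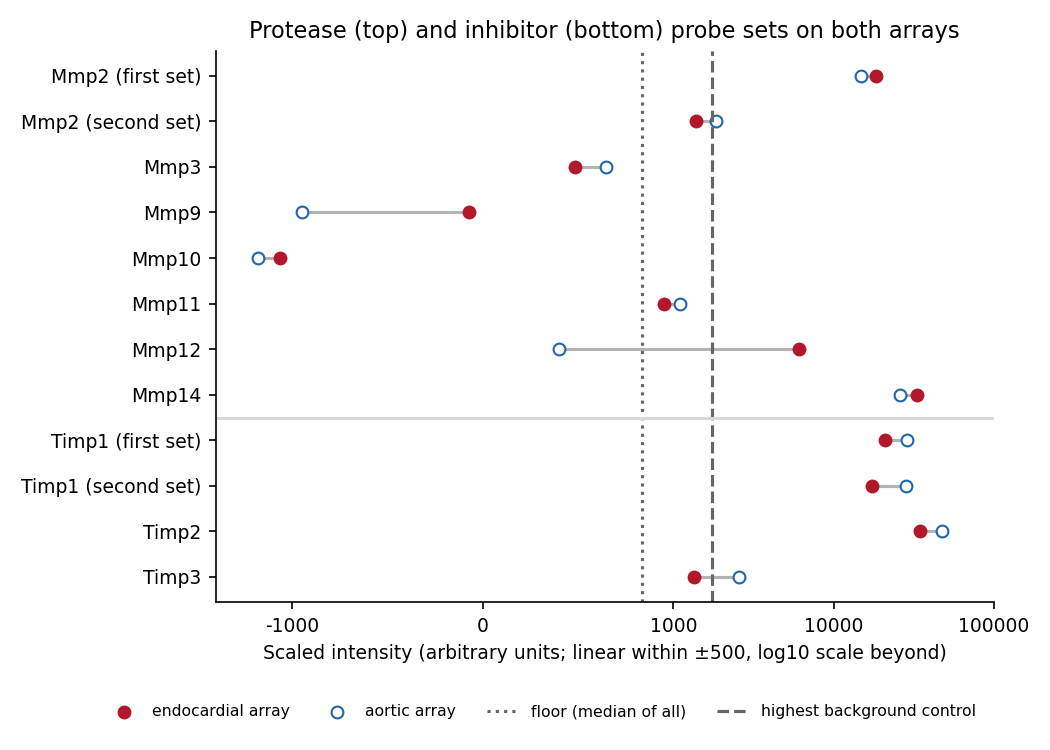
Scaled intensity of each of the 12 member probe sets on the endocardial array (filled red) and the aortic array (open blue), 1 array each, on an axis that is linear within ±500 and log10 beyond. The floor (dotted) and the highest background control (dashed) are marked; Mmp12 lies on opposite sides of both marks, and every inhibitor point is farther left on the endocardial array.

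The inhibitors were measured with all 4 of their probe sets. Timp1 encodes a soluble inhibitor that many cell types induce in response to growth factors and cytokines. Its first probe set (rc_AI169327_at) read 20878 on the endocardial and 28544.6 on the aortic array, a log2 ratio of -0.45. Its second probe set (rc_AI169327_g_at) read 17377.1 on the endocardial and 28277.3 on the aortic array, a log2 ratio of -0.70. Both were designed to the same database sequence, so they are not independent measurements, and they read alike on the aortic array and less alike on the endocardial array. At or below these ratios lay 16.2% and 7.99% of the 3932 probe sets.

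Timp2, the inhibitor that also bridges Mmp14 and the precursor of Mmp2, read 34860.6 on the endocardial and 47542.8 on the aortic array. Its log2 ratio was -0.45, a 1.37-fold lower intensity on the endocardial array, and 16.3% of probe sets lay at or below it. Timp3, the inhibitor that binds to the extracellular matrix and also blocks ADAM17, read 1338.1 on the endocardial and 2556.7 on the aortic array. Its log2 ratio was -0.94, a 1.91-fold lower intensity, and 4.60% of probe sets lay at or below it. The endocardial value of Timp3 was under the highest background control, and against that control Timp3 was at least 1.47-fold lower.

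None of the 4 inhibitor probe sets passed 2-fold in either direction, against 6.61% higher and 4.83% lower over all probe sets. All 4 had negative log2 ratios, with a median of -0.58, and 54.0% of the 3932 probe sets were negative too. Each deviated from 0 by more than the SD among probe sets of a gene, by 1.14 to 2.38 times that SD. That SD leaves out differences between cultures of the same origin, which were not measured. The share of all probe sets past that SD on either side was not counted. Of the 3932, 4.60% to 16.3% lay at or below these ratios. Each of those was past that SD too, so passing it is not particular to the inhibitors. The largest deviation was that of Timp3, whose endocardial value was under the highest background control. Against that control its log2 ratio was bounded at -0.55. The 2 Timp1 probe sets are not independent. With that control as the floor, 8 member probe sets were measured, of which Mmp12 passed 2-fold higher (4.53% over all probe sets) and 0 passed 2-fold lower (3.26%).

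**Figure D2:**
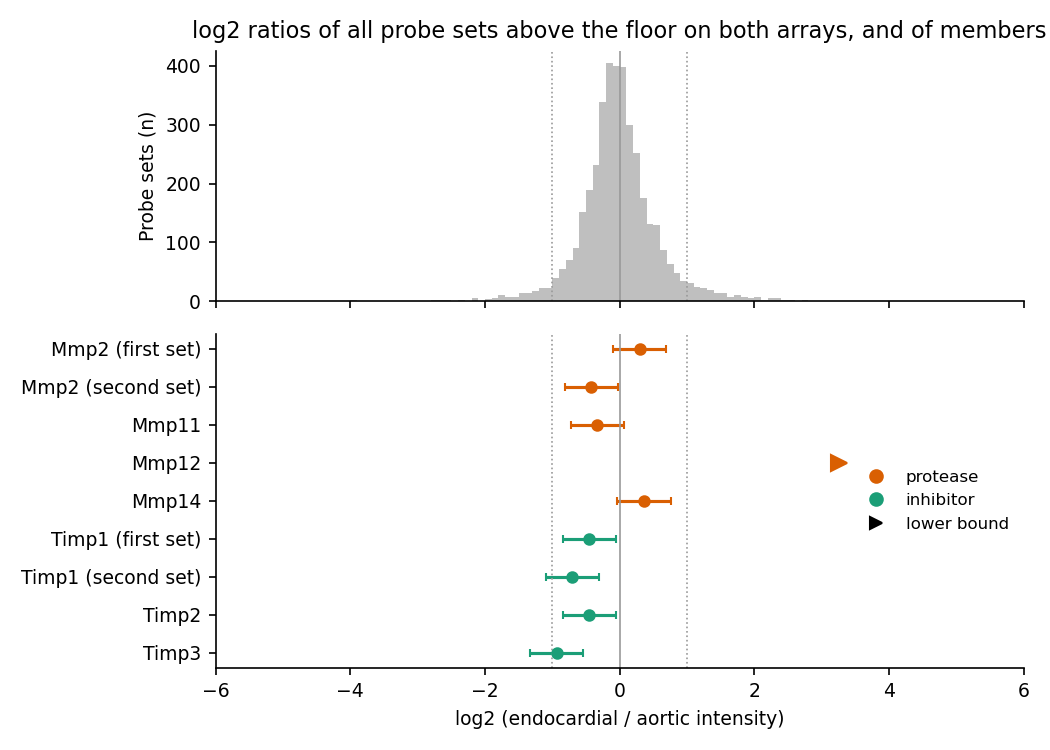
Upper panel, number of probe sets by log2 ratio (endocardial over aortic) for the 3932 brighter than the floor on both; lower panel, the 9 measured member probe sets, with bars of 1 SD among probe sets of the same gene (0.39) and dotted lines at 2-fold. The 4 inhibitor probe sets lie left of 0 and inside 2-fold, and Mmp12 (triangle) is a lower bound far outside it.

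The difference between log2 ratios on the same arrays does not depend on a constant scaling factor per array. It can change under quantile or loess normalization, which act by intensity. Mmp14 exceeded Timp2 in log2 ratio by 0.81, meaning that the quotient of their intensities was 1.75-fold higher on the endocardial array. Against Timp1 the difference for Mmp14 was 0.81 with the first and 1.07 with the second probe set, and against Timp3 it was 1.30. For the brighter Mmp2 probe set, the difference was 0.74 against Timp2 and 1.23 against Timp3. For the dimmer Mmp2 probe set and Mmp11 the differences from the inhibitors were 0.02 to 0.61. After quantile normalization the dimmer Mmp2 probe set had a log2 ratio of -0.44, Mmp11 one of -0.36 and Timp2 one of -0.31. The differences of Mmp11 and of that Mmp2 probe set from Timp2 thus changed sign. So did that of the same Mmp2 probe set from the first Timp1 probe set (-0.41 after quantile normalization). After loess, the dimmer Mmp2 probe set (-0.37) was again below Timp2 (-0.35). Of 16 such differences, 9 exceeded 0.56, the SD expected from probe set noise alone for 2 probe sets of equal true ratio. The share of all pairs of probe sets past 0.56 was not computed, so the count does not show that these pairs differ more than others. The 16 differences reuse the same 4 inhibitor probe sets and the same few protease probe sets, so they are not independent. The differences describe unequal ratios on these 2 arrays and do not say which side changed. Messenger RNA on an array does not give enzyme activity.

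In the rat genome table (GRCr8), 10 metalloproteinase genes follow one another on chromosome 8 with no other protein-coding gene among them. Their order is Mmp13, Mmp12, Mmp1b, Mmp3, Mmp1, Mmp10, Mmp8, Mmp27, Mmp20 and Mmp7. On the array, 6 of them had 1 probe set each, and Mmp12 on the endocardial array was the 1 value of these above the highest background control. Mmp7, matrilysin, read 1659.2 on the endocardial and 1232.7 on the aortic array, both under that control. Mmp8, the neutrophil collagenase, read 43.7 on the endocardial and -164.4 on the aortic array. Mmp13, the main interstitial collagenase of rodents, read -8 on the endocardial and 305 on the aortic array. The immediate neighbours of Mmp12 with a probe set, Mmp13 and Mmp3, thus had no signal above the floor on either array.

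**Figure D3:**
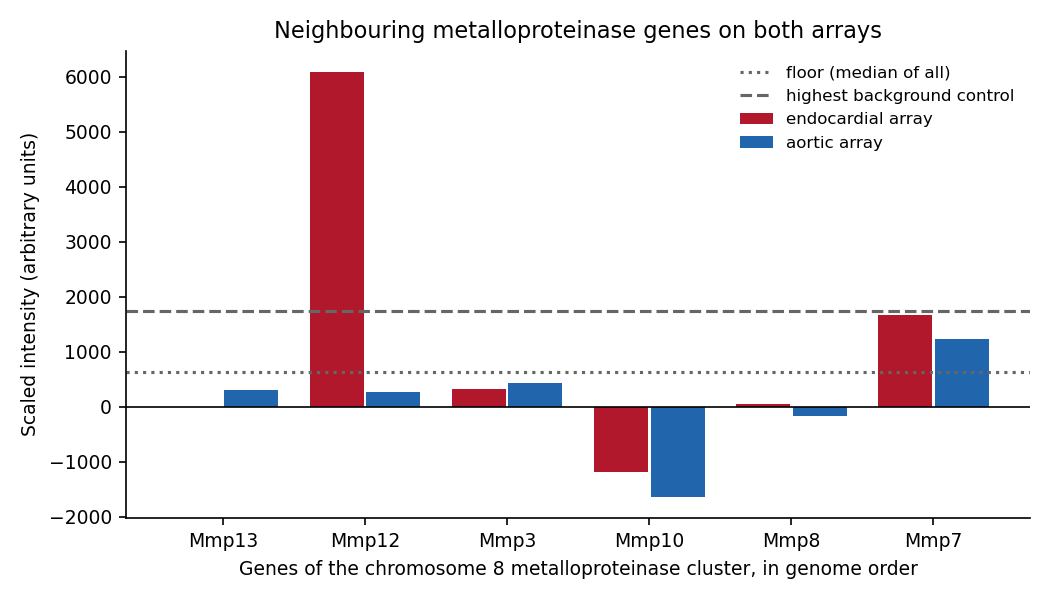
Scaled intensity of the 6 metalloproteinase genes of the chromosome 8 run that had a probe set, in genome order, with the endocardial array (red) left of the aortic array (blue). Mmp12 on the endocardial array stands above the highest background control (dashed), Mmp7 lies between that control and the floor (dotted) on both arrays, and the others are under the floor.

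The AP-1 motif bound by Fos and Jun family factors, a known element of several metalloproteinase promoters, was searched from 250 bases before to 50 bases after each gene start. Promoter sequences were given for 7 of the 10 members. The motif was present in Mmp12, Mmp3 and Mmp10, starting 87, 71 and 61 bases before the gene start, and 4.63% of 33469 rat promoters of the same length held it. A TATA motif stood nearer to the start in each, at 39, 32 and 33 bases before it. The Mmp10 promoter held another TATA match farther upstream, outside the bases shown. Both motifs together were found in 0.514% of all promoters. The search found neither motif in the promoters of Mmp11, Timp1, Timp2 and Timp3, whose GC content was 61.3% to 70.3%, against 38.3% to 46.3% in Mmp12, Mmp3 and Mmp10. Within the chromosome 8 run, 6 of 10 promoters held both motifs, with the AP-1 motif 61 to 87 bases before the start. Of these 6 genes, 5 were on the array, and they included genes with and without signal. A match of letters does not show binding.

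Beyond the members, 16 further family genes were looked for and 5 were on the array. Mmp23 read 15356.1 on the endocardial and 12870.4 on the aortic array, a log2 ratio of 0.25. Mmp16, another membrane-anchored enzyme, read 914.7 on the endocardial and 1260.7 on the aortic array, both under the highest background control. None of the 3 further genes measured passed 2-fold.

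Some markers of macrophages and leukocytes were, like Mmp12, brighter on the endocardial array. Of 18 listed, 14 were on the array and 12 were measured, of which 7 passed 2-fold higher and 0 passed 2-fold lower. Their median log2 ratio was 1.21, against 5.93% higher, 4.16% lower and a median of -0.02 over 2935 measured genes. Of the 7, 6 rested at least in part on aortic values at or under the floor, so that, as for Mmp12, the filter bears on their direction. RT1-Ba, an MHC class II chain, had a log2 ratio of -0.94, with probe sets from -1.27 to 1.75, and RT1-Db1 one of 0.05. By the median of their probe sets, 11 of the 14 were above the floor on the endocardial and 4 on the aortic array, and their summed intensity was 59377 on the endocardial and 9148 on the aortic array. Lyz2, the macrophage lysozyme, read 33638.5 on the endocardial and 287.6 on the aortic array. Csf1r, the receptor of macrophage colony-stimulating factor, and the integrin Itgam did not reach the floor on either array. Ptprc, the leukocyte phosphatase, had a log2 ratio of -0.09 with both values under the highest background control. Against that control 2 of 9 measured markers were at least 2-fold higher, Lyz2 and the complement component C3, which other cells also make. The share over all probe sets against that control was 4.53%. The part of such cells in the Mmp12 value was not tested.

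Other genes of matrix turnover were read from 6 lists. Of 90 listed genes, 64 were on the array and 54 were measured, of which 9 passed 2-fold higher and 7 passed 2-fold lower. Their median log2 ratio was 0.02. Over all 2935 measured genes, 5.93% passed 2-fold higher and 4.16% lower, and the counts of each list below stand against these shares.

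In the plasminogen system, whose product plasmin can activate metalloproteinase precursors, 1 of 4 measured genes was higher and 1 lower. Plat, the tissue plasminogen activator, read 11888.9 on the endocardial and 3392.2 on the aortic array, a log2 ratio of 1.81. Plaur, the urokinase receptor, was at least 3.10-fold lower, with an aortic value of 1967.2 close to the highest background control. Taken against that control its log2 ratio was -0.18, short of 2-fold. Plau, the urokinase activator, named after its value was seen, read 1266.2 on the endocardial and 7.4 on the aortic array, at least 1.99-fold higher against the floor, with both values under that control. Serpine2, an inhibitor of plasminogen activators, had a log2 ratio of 0.31.

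Of 13 measured activators, membrane partners and clearance genes, 3 passed 2-fold lower and 0 passed 2-fold higher, against 4.16% and 5.93% of all measured genes. Against the highest background control 1 of 11 passed 2-fold lower, Lcn2, as 3.26% of all probe sets did. Lcn2, the lipocalin that binds the Mmp9 protein in human neutrophils, read 3343.7 on the endocardial and 10787.9 on the aortic array, while Mmp9 itself was under the floor. Lrp2, an endocytic receptor, had a log2 ratio of -1.23, and Pcsk5, a proprotein convertase named after its value was seen, one of -1.03. Lrp2 rested on 1 of its 3 probe sets and Pcsk5 on 1 of its 2. Itgb1, an integrin subunit for matrix adhesion, had a log2 ratio of 0.87, and the convertase Pcsk6 one of 0.89 with both values under the highest background control. Among 4 other metalloproteinases none passed 2-fold. Adam17, the sheddase that Timp3 inhibits, had a log2 ratio of 0.52, Ece1, the endothelin-converting enzyme, one of 0.11, and Adam10 one of -0.45. Mme, neprilysin, named after its value was seen, was at least 1.70-fold lower, with both values under the highest background control.

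Of 15 measured matrix substrates, 1 was higher and 3 were lower, with a median log2 ratio of -0.26. Against the highest background control, 1 of 13 was higher and 2 were lower, where 4.53% and 3.26% of all probe sets were. Elastin, Eln, the substrate after which Mmp12 is named, was at least 2.44-fold lower, reading 367.3 on the endocardial and 1547.3 on the aortic array, both under the highest background control. Dcn, decorin, was at least 13.9-fold lower and Vcan, versican, named after its value was seen, had a log2 ratio of -1.19. Spp1, osteopontin, had a log2 ratio of 2.41 and Lamc1, a laminin chain, one of 0.61.

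Among cytokines and receptors known to induce or restrain metalloproteinases, 5 of 10 measured genes were past 2-fold in the higher direction and 0 in the lower. Over all measured genes 5.93% were higher and 4.16% lower. The median log2 ratio of the list was 1.02. Of the 5, 2 rested on aortic values at or under the floor, so that the filter bears on their direction. With the highest background control as the floor, 4 of 6 were higher and 0 lower, against 4.53% and 3.26% over all probe sets. Tgfb2 was at least 6.66-fold and Tnfrsf1a, a receptor for tumour necrosis factor, at least 5.44-fold higher. Against the highest background control the log2 bound was 1.28 for Tgfb2 and 0.99 for Tnfrsf1a. The angiotensin receptor Agtr1a, Tgfb3 and the peptide Edn1, named after their values were seen, had log2 ratios of 1.70, 1.36 and 1.13. Tgfb1 had a log2 ratio of 0.91 and its receptor Tgfbr1 one of -0.09. The cytokines Il1a and Tnf were under the floor on both arrays.

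Of 8 measured AP-1, Ets and NF-kB factors, 2 passed 2-fold higher and 0 passed 2-fold lower. Ets1 was at least 2.22-fold and Jun at least 2.19-fold higher against the floor, but against the highest background control neither passed 2-fold. The 2 probe sets of Ets1 had log2 ratios of 0.43 and 1.87. Jun rested on 1 of its 4 probe sets, with the others under the floor on both arrays. Nfkb1 had a log2 ratio of 0.72 and Junb one of -0.01.

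**Figure D4:**
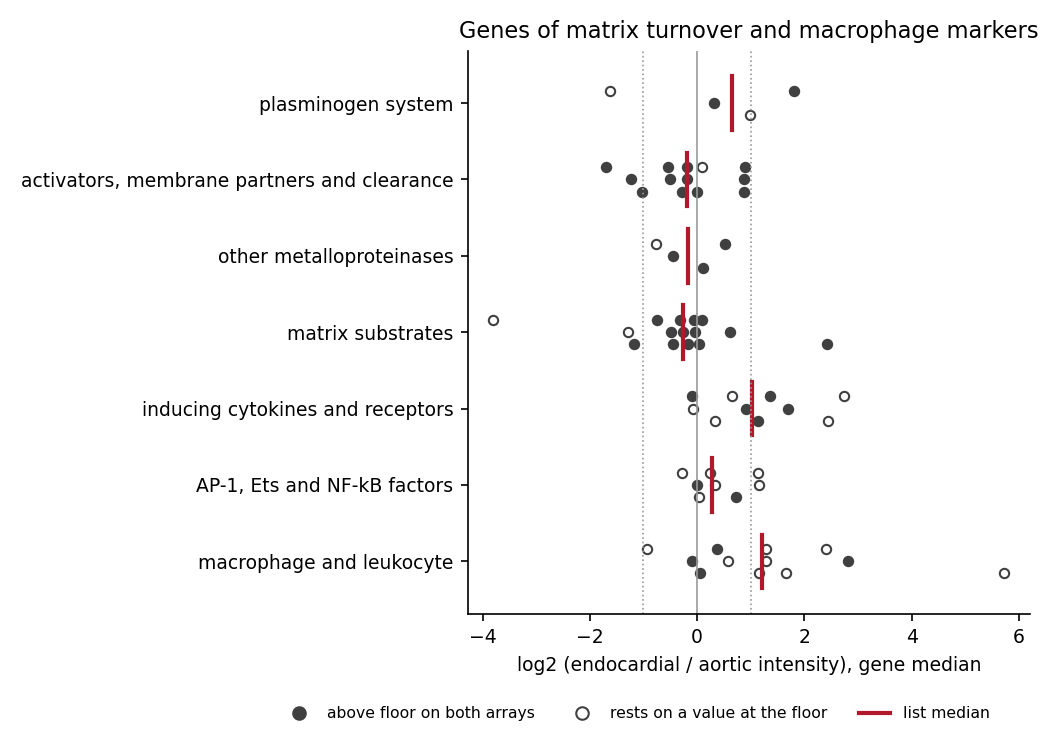
Gene medians of log2 ratios (endocardial over aortic) for measured genes of 6 matrix turnover lists and of the macrophage and leukocyte list, with open points for genes that rest on a value at the floor, red bars at list medians and dotted lines at 2-fold. The medians of the inducing cytokine list (1.02) and the macrophage list (1.21) lie right of the 2-fold line, and the median of the matrix substrates (-0.26) lies left of 0.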

How the data were processed

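Total RNA of endocardial and aortic endothelial cultures was read on 1 array each. Each array had 1 deposited intensity per probe set, in linear units; the sources used here do not give the summarising method. The authors' deposited columns had 2% trimmed means of 2504.04 (endocardial) and 2504.33 (aortic), and 24.3% and 25.8% of values were at or below 0. Of 41 settings in the scanner files, 2 differed between arrays (scan time and fluidics module).

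The 59 control probe sets were left out and the other 8740 scaled to a shared 2% trimmed mean (factors 0.999 endocardial, 1.00 aortic). Probe sets at or under the floor on both arrays got no ratio, which left 4808. Of 8740, 7006 had exactly 1 symbol by the platform annotation, 308 several and 1426 none; 6985 of the 7006 matched the GRCr8 gene table and 0 symbols changed. A gene's value was the median over its measured probe sets. Partner genes were named as the 2 highest and 2 lowest per list among genes above the floor on both arrays or with a bound of at least 2-fold; exceptions are stated. Members and lists were chosen with earlier results of these data known. The counting step was tested on simulated data. Python 3.11.15, numpy 2.4.6, pandas 2.3.3 and statsmodels 0.14.6 (loess, span 0.4) were used. Precision is limited by the number of arrays, 1 per group.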

Additional observations from a re-analysis of the deposited data

How the results depend on the processing

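Results were recomputed on the deposited values, with quantile normalization, centring, loess, floors at the 75th percentile or the highest background control, and no floor; counts also with plain probe sets, and partner gene counts with the brightest probe set. The protease counts of 1 higher and 0 lower and the inhibitor counts of 0 and 0 were the same under each alternative run. Of 59 alternative log2 ratios of members, 0 changed sign and 56 moved by less than 0.39. The other 3 were of Mmp12, with 1.24 at the 75th percentile, 1.80 at the highest control and 4.51 with no floor, against 3.26; these follow from the floor itself. Timp3 had no ratio at the 75th percentile and ranged from -0.97 to -0.55 otherwise; over all alternatives Timp2 ranged from -0.45 to -0.31 and Mmp14 from 0.36 to 0.47. Of the partner genes, 9 higher and 7 lower became 4 and 3 when the floor was the 75th percentile, where 37 rather than 54 were measured, and 6 and 3 at the highest control, where 39 were. Among all 2447 probe sets measured at the 75th percentile, 90 were higher and 76 lower. At the highest control, 4.53% of all probe sets were higher and 3.26% lower. No paired analysis was possible because each group has 1 array. Members under the floor give no information on a difference, and no spread between cultures was measured.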
